A study of Rattus norvegicus with 24 samples.

Results

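Voltage-gated calcium, sodium and HCN channel genes were followed across 24 arrays of rat striatal RNA. A gene belonged to the group if a non-control probe of the array named it with a symbol beginning with Cacna or Cacnb, with Scn or Hcn followed by a number, or with Cacng1, Cacng4, Cacng5 or Cacng7. This gave 40 genes of the 36174 gene names on the array, with 67 of its 45598 probes. Of these probes 53 passed the filter on dim signals, and 32 of the 40 genes were tested, each by its kept probe with the highest mean. They form 7 classes by subunit, namely the alpha1, alpha2delta, beta and gamma subunits of calcium channels, the alpha and beta subunits of sodium channels and the HCN channels.

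The tissue was the left dorsal striatum of male Long Evans rats, 80 to 90 days old, dissected by hand from frozen brains 24 h after the last of 5 daily intraperitoneal injections. Chronic rats had MDPV at 1 mg/kg on each of the 5 days, acute rats had saline on 4 days and MDPV at the same dose on the last, and saline rats had saline on all 5. MDPV (methylenedioxypyrovalerone) is a synthetic cathinone that blocks dopamine and noradrenaline uptake. The series design gives 6 animals per group, but there are 8 arrays per group. In each group 4 arrays have a title of their own and 4 share a letter in pairs. Arrays of a shared letter were averaged, so that each group has 6 units and the comparisons rest on 18. No label ties a letter to a rat, so p-values measure the spread between these units, part of which may be technical. Over the genes tested, arrays of a shared letter were less alike than other arrays of their group (consensus correlation -0.366). The values thus do not show that a letter marks 1 rat, and averaged units may vary less than single arrays.

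The pore of a voltage-gated calcium or sodium channel is a single large alpha subunit that opens when the membrane depolarises. Sodium channels carry the upstroke of the action potential, calcium channels couple depolarisation to transmitter release, firing patterns and transcription, and HCN channels open on hyperpolarisation and pace the return towards threshold. Auxiliary subunits set how much of each pore reaches the membrane and how it gates. In the striatum these channels shape the spiny projection neurons, whose calcium and sodium currents are known targets of dopamine receptor signalling.

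The signal of each gene is that of a 60-base probe, and several results turn on which probe stands for a gene. Shown here are the probes of the genes taken up below, in the sequence of the transcript, 5′ to 3′, with coordinates as the files give them in rat build rn4. Among the Cacnb1 probes, capitals mark the bases that differ between the first and the second when these are aligned with a shift of 1 base. In the first Scn2b probe, capitals mark the polyadenylation hexamer AATAAA. The second Cacnb1 probe also holds AATAAA, but its capitals mark only the differing bases. All other probes are in lower case throughout.
Cacnb1, probe spotted 10 times, chr10:86764290-86764349, minus strand: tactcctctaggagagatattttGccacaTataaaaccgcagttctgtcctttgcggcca
Cacnb1, second probe, chr10:86764289-86764348, minus strand: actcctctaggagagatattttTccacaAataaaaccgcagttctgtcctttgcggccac
Cacnb1, distant probe, chr10:86767997-86768056, minus strand: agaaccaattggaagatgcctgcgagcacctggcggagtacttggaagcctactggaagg
Cacna1i, first probe, chr7:118681478-118681537, plus strand: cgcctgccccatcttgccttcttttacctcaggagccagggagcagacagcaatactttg
Cacna1i, second probe, chr7:118681478-118681537, plus strand: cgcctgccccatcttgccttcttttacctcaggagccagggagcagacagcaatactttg
Cacna1a, first probe, chr19:25186885-25186944, minus strand: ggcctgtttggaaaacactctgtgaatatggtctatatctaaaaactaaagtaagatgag
Cacna1a, second probe, chr19:25194788-25194847, minus strand: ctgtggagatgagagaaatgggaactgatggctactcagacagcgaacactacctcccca
Cacna1e, first probe, chr13:69359930-69359989, minus strand: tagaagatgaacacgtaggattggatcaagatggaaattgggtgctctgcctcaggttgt
Cacna1e, second probe, chr13:69367332-69367391, minus strand: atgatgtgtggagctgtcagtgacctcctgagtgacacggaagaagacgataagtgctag
Scn2b, probe spotted 10 times, chr8:48082124-48082183, plus strand: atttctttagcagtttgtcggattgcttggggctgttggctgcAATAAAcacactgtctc
Scn2b, second probe, chr8:48078455-48078514, plus strand: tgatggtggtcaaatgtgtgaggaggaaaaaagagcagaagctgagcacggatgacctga
Scn4b, only probe, spotted in duplicate, chr8:48106487-48106546, plus strand: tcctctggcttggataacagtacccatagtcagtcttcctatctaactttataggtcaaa

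The second Cacnb1 probe lies 1 base further along, and 2 of the 59 aligned bases differ, written G24T and T30A with positions counted from 1 at the 5′ end of the first. Both Cacna1i probes have the same 60 bases at the same place. AATAAA was found in 6 of the 67 probes of these genes and in 5 of the 32 that were tested, against 9.04% of all 45598 probes. On the opposite strand it was found in 2 of the 67, 0 of the 32 and 3.53% of all probes.

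Each array has 58717 non-control spots, of which 50.7% to 71.3% were well above background. None were saturated. Signal over background had medians of 6.45 to 10.4. Levels are log2 signals minus the 75th percentile of their array, so 0 is the brightness of that percentile. They are compared between samples of one probe and not between probes, which differ in how well they bind. Markers of striatal projection neurons had a mean list level of 1.35 to 2.88 over the 18 units. Saline replicate 4 stood apart. It had the lowest pan-striatal level of the 18 units (1.35, against 2.01 to 2.88 in the others), the highest level of hypothalamic peptide genes (-0.80, against -4.40 to -3.58) and the highest level of thalamus, septum and pallidum markers (-0.99, against -3.11 to -2.20). For each gene's chosen probe, differences from saline rats named below are given with and without it where it moves them by over 1.5 times.

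Transcripts of 24 of the 40 genes were well above background on all 24 arrays. These were 6 of the 10 calcium alpha1 genes, 3 of the 4 alpha2delta genes, all 4 beta genes, 5 of the 10 sodium alpha genes, all 4 sodium beta genes and 2 of the 4 HCN genes, with none of the 4 gamma genes among them. Another 8 genes were tested with fewer detections. Cacna1a and Cacna1d were well above background on 23 arrays, Cacng1 and Hcn3 on 21, Cacng7 and Hcn4 on 20, Scn9a on 18 and Cacng4 on 16.

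The 8 genes that were not tested are mostly known from other tissues. Cacna1f, the alpha1 subunit of retinal photoreceptors, Cacna2d4, its retinal partner, Scn4a, the sodium channel of skeletal muscle, and Scn10a, one of sensory neurons, were not well above background on any of the 24 arrays. Cacna1s, the calcium channel of skeletal muscle, was so on 1 chronic and 1 acute array, and Cacng5, a relative of the proteins that traffic AMPA receptors, on 1 acute array. Scn11a, another sodium channel of sensory neurons, was detected on 1 chronic, 2 acute and 2 saline arrays. Scn7a, an atypical sodium channel with a role in sodium sensing, was detected on 2 saline arrays alone. These genes have bounds rather than levels, and no fold is given for them.

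**Figure D1:**
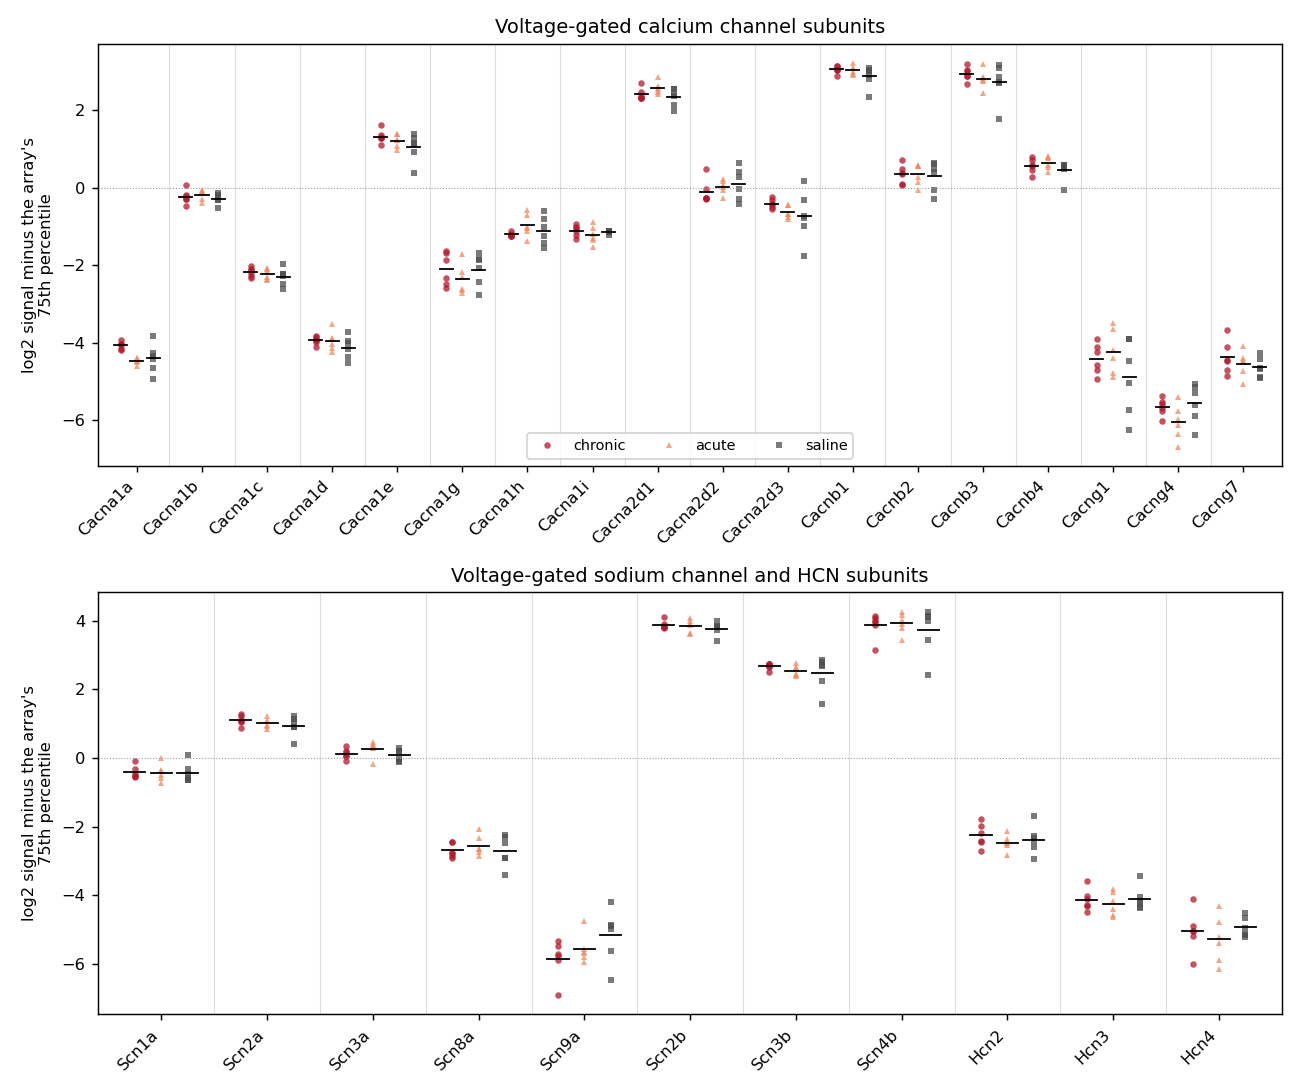
Levels of 29 tested channel genes (log2 signal minus the 75th percentile of the array) in the 6 chronic, 6 acute and 6 saline units, with each point a unit and each black bar a group mean. The groups overlap in every gene drawn except Cacna1a between chronic and acute rats, and Cacng1, Scn9a and Hcn4 scatter widely.

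Among the calcium channel pores that trigger transmitter release, Cacna1a encodes the P/Q-type, Cacna1b the N-type and Cacna1e the R-type channel. With the lowest, the median and the highest unit of each group, Cacna1a had -4.19, -4.05 and -3.92 in chronic, -4.61, -4.48 and -4.39 in acute and -4.93, -4.37 and -3.82 in saline rats. All 6 chronic units lay above all 6 acute units, while the saline units spanned both. Cacna1b had -0.47, -0.25 and 0.053 in chronic, -0.40, -0.12 and -0.074 in acute and -0.54, -0.27 and -0.14 in saline rats, and Cacna1e had 1.09, 1.28 and 1.61 in chronic, 0.98, 1.23 and 1.38 in acute and 0.39, 1.13 and 1.38 in saline rats. Both overlapped across the 3 groups. The lowest Cacna1e level was that of saline replicate 4, and the highest Cacna1b level that of chronic replicate 1.

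The L-type pores Cacna1c and Cacna1d couple depolarisation to transcription, and the Cacna1d channel opens at more negative potentials. In the same order of lowest, median and highest, Cacna1c had -2.33, -2.16 and -2.03 in chronic, -2.37, -2.22 and -2.07 in acute and -2.61, -2.26 and -1.98 in saline rats. Cacna1d had -4.12, -3.93 and -3.83 in chronic, -4.23, -3.97 and -3.53 in acute and -4.53, -4.08 and -3.73 in saline rats. Saline replicate 4 was the lowest of the 18 units in both genes, and the groups overlapped.

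Cacna1g, Cacna1h and Cacna1i encode the T-type pores, which open near rest and support rebound bursts. Lowest, median and highest in turn, Cacna1g had -2.58, -2.10 and -1.62 in chronic, -2.71, -2.46 and -1.72 in acute and -2.78, -1.98 and -1.69 in saline rats. Cacna1h had -1.26, -1.23 and -1.11 in chronic, -1.38, -1.03 and -0.58 in acute and -1.57, -1.13 and -0.60 in saline rats. Cacna1i had -1.32, -1.09 and -0.94 in chronic, -1.53, -1.25 and -0.90 in acute and -1.23, -1.14 and -1.11 in saline rats. The chronic units of Cacna1h and the saline units of Cacna1i were closely grouped, with SDs of 0.053 and 0.042, inside the wider ranges of the other groups.

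The alpha2delta subunits raise the number of calcium channels at the surface, and the products of Cacna2d1 and Cacna2d2 bind the drug gabapentin. Lowest, median and highest, Cacna2d1 had 2.31, 2.34 and 2.69 in chronic, 2.41, 2.54 and 2.84 in acute and 1.97, 2.38 and 2.54 in saline rats. Cacna2d2 had -0.30, -0.26 and 0.47 in chronic, -0.27, 0.041 and 0.22 in acute and -0.42, 0.11 and 0.64 in saline rats. Cacna2d3 had -0.56, -0.43 and -0.25 in chronic, -0.81, -0.68 and -0.45 in acute and -1.77, -0.76 and 0.17 in saline rats. In Cacna2d1 and Cacna2d2, chronic replicate 1 was the highest chronic unit. In Cacna2d3 the saline units covered a wider span than the other groups and held both the lowest unit, saline replicate 4, and the highest, saline replicate 7.

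The beta subunits bind the inner face of the pore and carry it to the membrane. Again as lowest, median and highest, Cacnb1 had 2.87, 3.05 and 3.14 in chronic, 2.90, 3.04 and 3.21 in acute and 2.34, 2.96 and 3.08 in saline rats. Cacnb2 had 0.055, 0.37 and 0.72 in chronic, -0.063, 0.41 and 0.57 in acute and -0.29, 0.43 and 0.62 in saline rats. Cacnb1 was first described as the partner of the skeletal muscle pore, and Cacnb4 is the gene mutated in the lethargic mouse. Cacnb3 had 2.67, 2.94 and 3.19 in chronic, 2.43, 2.80 and 3.19 in acute and 1.78, 2.78 and 3.17 in saline rats. Cacnb4 had 0.27, 0.56 and 0.78 in chronic, 0.39, 0.67 and 0.81 in acute and -0.054, 0.54 and 0.59 in saline rats. Saline replicate 4 was the lowest of all 18 units in each of these 4 genes, and the groups overlapped in each.

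Of the gamma subunits, Cacng1 belongs to the skeletal muscle calcium channel, while Cacng4 and Cacng7 are relatives that act mainly on AMPA receptors. Their lowest, median and highest levels were dim ones. Cacng1 had -4.94, -4.41 and -3.90 in chronic, -4.89, -4.29 and -3.50 in acute and -6.25, -4.76 and -3.90 in saline rats. Cacng4 had -6.02, -5.64 and -5.38 in chronic, -6.68, -6.05 and -5.40 in acute and -6.37, -5.46 and -5.08 in saline rats. Cacng7 had -4.86, -4.46 and -3.68 in chronic, -5.06, -4.47 and -4.10 in acute and -4.90, -4.66 and -4.26 in saline rats. The acute units of Cacng4 lay lower on average than those of the other groups but overlapped both, and Cacng1 spread widely within every group.

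Scn1a, Scn2a, Scn3a and Scn8a are the sodium channel pores of the central nervous system, with Scn2a and Scn8a known from the axon initial segment and Scn3a from the embryonic brain. Lowest, median and highest in turn, Scn1a had -0.55, -0.48 and -0.084 in chronic, -0.73, -0.44 and -0.0032 in acute and -0.63, -0.51 and 0.083 in saline rats. Scn2a had 0.86, 1.09 and 1.28 in chronic, 0.85, 1.02 and 1.23 in acute and 0.41, 0.97 and 1.24 in saline rats. Scn3a had -0.098, 0.12 and 0.35 in chronic, -0.17, 0.34 and 0.47 in acute and -0.12, 0.089 and 0.30 in saline rats. The groups overlapped in all 3 genes, and the lowest unit was saline replicate 4 for Scn2a and acute replicate 2 for Scn3a. Scn8a had -2.90, -2.76 and -2.44 in chronic, -2.87, -2.65 and -2.08 in acute and -3.41, -2.69 and -2.23 in saline rats, with saline replicate 7 lowest.

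Scn9a is best known from sensory neurons. As lowest, median and highest, Scn9a had -6.90, -5.74 and -5.32 in chronic, -5.93, -5.67 and -4.75 in acute and -6.47, -4.93 and -4.19 in saline rats. Chronic replicate 7 was the lowest and saline replicate 4 the highest unit. The SD of Scn9a within groups was 0.604, which placed it at the 94.2 percentile of all tested genes. Over all 32 genes the median SD within groups was 0.309, against 0.246 for the 20902 genes tested, and 19 of the 32 lay above that value.

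The sodium channel beta subunits modulate gating and act as adhesion molecules, and Scn4b is known as a transcript of striatal projection neurons. Lowest, median and highest in turn, Scn2b had 3.80, 3.83 and 4.10 in chronic, 3.61, 3.90 and 4.06 in acute and 3.40, 3.83 and 3.99 in saline rats. The products of Scn2b and Scn4b are joined to the pore by a disulfide bond, while that of Scn3b is held without one. Scn3b had 2.50, 2.71 and 2.73 in chronic, 2.40, 2.53 and 2.78 in acute and 1.56, 2.69 and 2.86 in saline rats. Scn4b had 3.15, 3.97 and 4.13 in chronic, 3.45, 3.96 and 4.27 in acute and 2.41, 4.05 and 4.24 in saline rats. Saline replicate 4 was the lowest unit in these 3 genes. The other 5 saline units of Scn4b lay between 3.45 and 4.24, among the chronic and acute ones.

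The HCN genes encode the channels of the hyperpolarisation-activated current, and Hcn4 is known for slow gating. As lowest, median and highest, Hcn2 had -2.71, -2.30 and -1.78 in chronic, -2.84, -2.47 and -2.11 in acute and -2.93, -2.37 and -1.69 in saline rats. The saline units of Hcn2 covered the widest span of the 3 groups. Hcn3 had -4.47, -4.18 and -3.58 in chronic, -4.62, -4.28 and -3.81 in acute and -4.36, -4.19 and -3.43 in saline rats. Hcn4 had -5.98, -5.03 and -4.11 in chronic, -6.13, -5.30 and -4.30 in acute and -5.21, -5.03 and -4.50 in saline rats. The groups overlapped in these 3 genes. Hcn3 was highest in saline replicate 4, in contrast to the calcium channel beta subunits.

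Over the 32 tested genes, saline replicate 4 was the lowest of the 18 units in 16 genes and the highest in 5. No other unit was lowest in more than 3. In bulk tissue such a level cannot tell fewer cells of a type from less RNA per cell. The same counts over all tested genes are not given here, so they are not shown to be a trait of channel genes.

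Chronic against saline rats asks what 5 daily doses left in the striatum a day after the last. By limma, with p-values adjusted over all 20902 genes after Benjamini and Hochberg, no channel gene passed (smallest adjusted p = 0.9995). The share of all genes called was 0% as well. At an unadjusted p under 0.05 there was 1 of the 32 channel genes, against 2.87% of all genes. Of the 32 genes 25 had a difference above 0, against 56.5% of all genes, with a median of 0.10 against 0.020.

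Cacna1a, the P/Q-type pore, had the smallest p, with a difference of 0.34 (SE 0.13, 95% interval 0.064 to 0.61, unadjusted p = 0.0184). This is 1.26-fold on the linear scale. It was 0.53, 0.64 and -0.36 within slides 1, 2 and 3, and 0.23 without saline replicate 4. After normexp background correction and quantile normalization it was 0.14, and after quantile normalization alone 0.32. Next came Scn9a, the pore of sensory neurons, at -0.68 (SE 0.33, 95% interval -1.36 to 0.0069, unadjusted p = 0.0521), and Cacna1e, the R-type pore, at 0.28 (SE 0.14, 95% interval -0.013 to 0.57, unadjusted p = 0.0597). The Scn9a difference was -0.37 after quantile normalization, with or without normexp, and in the authors' values. The next differences by p were those of the beta subunit Cacnb1 at 0.18 (SE 0.11), the alpha2delta subunit Cacna2d3 at 0.31 (SE 0.21) and the sodium channel pore Scn2a at 0.17 (SE 0.12). Without saline replicate 4 the differences were 0.15 for Cacna1e, 0.076 for Cacnb1, 0.11 for Cacna2d3 and 0.065 for Scn2a. On slide 3 alone the differences of Cacna1e, Cacna2d3 and Scn2a were below 0, at -0.31, -0.054 and -0.26. The second Cacna1a probe had 0.081 (SE 0.26), and the other kept Cacna1e probes had 0.0089 (SE 0.18) and 0.0067 (SE 0.20). The second Scn2a probe had 0.12 (SE 0.15).

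By class, 7 of 8 alpha1 genes, 2 of 3 alpha2delta genes, 4 of 4 beta genes and 2 of 3 gamma genes of the calcium channels were above 0. So were 4 of 6 sodium alpha genes, 4 of 4 sodium beta genes and 2 of 4 HCN genes. Without saline replicate 4 the counts were 3 of 4 calcium beta genes, 3 of 6 sodium alpha genes, 3 of 4 sodium beta genes and 3 of 4 HCN genes, with the others as before. In all, 23 of the 32 were then above 0, against 56.4% of all genes, with a median of 0.042 against 0.016. An unadjusted p under 0.05 by limma was then found for 0 of the 32, against 1.99% of all genes. On slide 3 alone 12 of the 32 were above 0, against 43.7% of all genes, with a median of -0.076 against -0.045. The lean above 0 did not hold on that slide, among the channel genes or among all genes. Slides 1 and 2 had medians of 0.082 and 0.21, against 0.061 and 0.0094 for all genes.

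The averages of several marker lists differed between the treatment groups, in part through saline replicate 4. All 17 pan-striatal markers were higher on average in chronic than in saline rats (list level 2.01 to 2.72 against 1.35 to 2.88 over units), as were 9 of 10 cortex markers. All 7 markers of choroid plexus and ependyma were lower, with a median of -1.09 and list levels of -5.44 to -2.67 in chronic against -4.74 to -1.14 in saline units. The 9 thalamus, septum and pallidum markers were lower too, with a median of -0.45. Without saline replicate 4, 4 of 17 pan-striatal markers were above 0 (median -0.078), so the direction of that list turned. The medians were then 0.13 for cortex (0.51 with it), -0.77 for choroid plexus and ependyma and -0.26 for thalamus, septum and pallidum. No marker of these lists passed the test alone, and their part in the differences of the channel genes was not tested.

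Acute against saline rats asks what a single dose left after a day. Here too no channel gene passed (smallest adjusted p by limma 0.9997, and 0% of all genes called). An unadjusted p under 0.05 was found for 2 of 32 channel genes and 1.59% of all genes, and 19 of the 32 differences were above 0, against 49.1% of all genes. The median was 0.081, against -0.0023 for all genes. Without saline replicate 4 it was -0.0043, against -0.0068, with 16 of 32 above 0, against 47.8% of all genes.

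Cacna2d1, the gabapentin-binding subunit, had a difference of 0.24 (SE 0.11, 95% interval 0.021 to 0.47, unadjusted p = 0.0340) and was at -0.24 on slide 1 alone. Cacng4, the gamma relative that acts mainly on AMPA receptors, had -0.48 (SE 0.22, 95% interval -0.95 to -0.014, unadjusted p = 0.0440). It had 0.023 after normexp background correction and quantile normalization. The skeletal muscle gamma subunit Cacng1 came next at 0.65 (SE 0.37, 95% interval -0.13 to 1.44, unadjusted p = 0.0953). Its difference was 0.14 after normexp background correction and quantile normalization, and 0.71 after quantile normalization alone. The sodium channel pore Scn3a had 0.19 (SE 0.11), and the beta subunits Cacnb4 and Cacnb1 had 0.20 (SE 0.12) and 0.17 (SE 0.11), which were 0.098 and 0.064 without saline replicate 4. None of these differences is shown to be larger than the spread between units. The 4 HCN genes were all below 0, with a median of -0.12, and none had an unadjusted p under 0.05. All 17 pan-striatal markers were above 0 in this comparison, with a median of 0.21, and all 7 choroid plexus and 9 thalamus, septum and pallidum markers below 0, with medians of -0.90 and -0.42. Without saline replicate 4, 10 of 17 pan-striatal markers were above 0 (median 0.018), the choroid plexus median was -0.63, and 3 of 9 thalamus, septum and pallidum markers were above 0 (median -0.063). Their part was not tested.

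Chronic against acute rats sets 5 doses beside 1. The smallest adjusted p of a channel gene by limma was 0.960, and 0% of all genes were called. At an unadjusted p under 0.05 there was 1 channel gene, against 2.48% of all genes. A difference above 0 was found in 21 of the 32, against 56.5% of all genes, with a median of 0.033 against 0.024.

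Cacna1a had 0.41 (SE 0.13, 95% interval 0.13 to 0.68, unadjusted p = 0.00599), which is 1.33-fold. It was also the 1 channel gene whose chronic and acute units did not overlap, against 0.182% of all genes. Before arrays of a shared letter were averaged the groups overlapped, with -4.45 to -3.70 on the 8 chronic arrays and -4.61 to -4.36 on the 8 acute arrays. This difference was 0.45, 0.40 and 0.24 within slides 1, 2 and 3, and it was above 0 under every alternative tried, from 0.24 to 0.45. The second Cacna1a probe had a difference of 0.088 (SE 0.26), and the first was dim, at 7.35 times the background in the median. Between chronic and saline and between acute and saline rats 0 channel genes had groups that did not overlap, against 0.0478% and 0.0287% of all genes.

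The next by p were Cacng4 at 0.39 (SE 0.22, 95% interval -0.081 to 0.86, unadjusted p = 0.0995) and the T-type pore Cacna1h at -0.24 (SE 0.15, 95% interval -0.56 to 0.085, unadjusted p = 0.140). Cacna2d1 at -0.16 (SE 0.11), Scn3a at -0.15 (SE 0.11) and the T-type pore Cacna1g at 0.27 (SE 0.22) followed. The sign of each of these 5 turned on 1 slide. Cacng4 was at -0.51 on slide 2 and Cacna1g at -0.64 on slide 3, while Cacna1h, Cacna2d1 and Scn3a were at 0.053, 0.070 and 0.067 on slide 1. The comparison shares its chronic units with the first and its acute units with the second, so the 3 are not independent. Here 7 of 17 pan-striatal and 4 of 7 choroid plexus markers were above 0, with medians of -0.015 and 0.0078. Of the cortex markers 9 of 10 were above 0 (median 0.20), and of the thalamus, septum and pallidum markers 1 of 9 (median -0.16). Cacna1a had r = 0.678 with the cortex level over the 18 units (adjusted p = 0.0506 by permutation) and rho = 0.546 (adjusted p = 0.210). Without saline replicate 4 its r was 0.511 (permutation adjusted p = 0.352), and 0.351 after removing the 2 units farthest from the median. With values centred within treatment groups it was 0.728 (permutation adjusted p = 0.0248). The part of these markers in the differences was not tested.

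A test of any difference among the 3 groups, limma's F test, found none either (smallest adjusted p of a channel gene 0.997, 0% of all genes called). At an unadjusted p under 0.05 it held Cacna1a alone of the 32 (unadjusted p = 0.0132), against 1.71% of all genes.

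**Figure D2:**
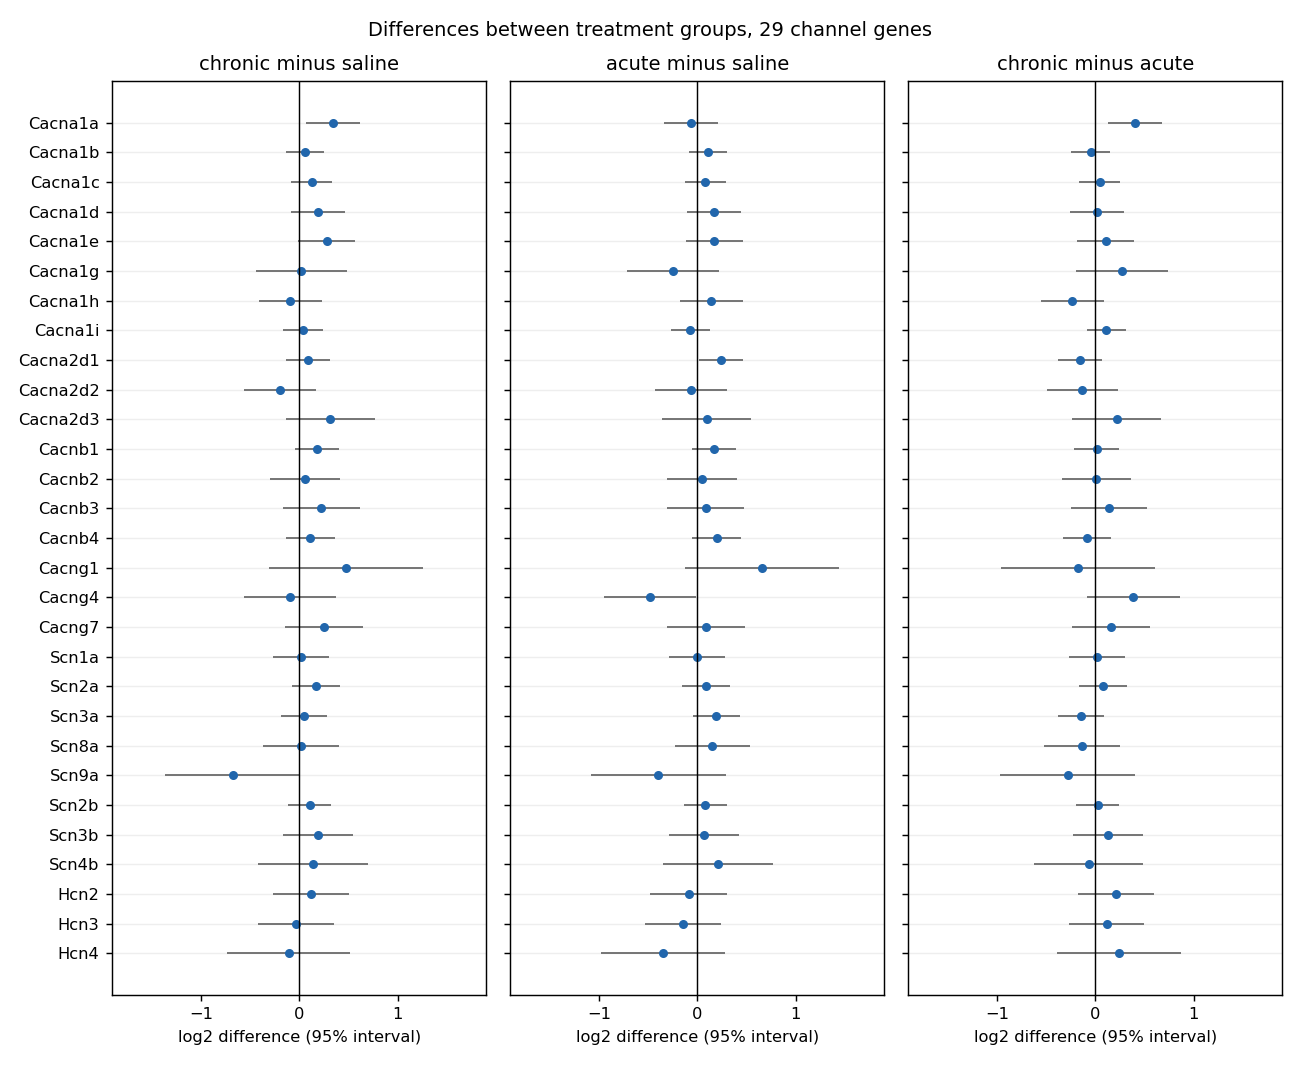
Log2 differences with 95% intervals for 29 channel genes, chronic minus saline, acute minus saline and chronic minus acute, with each point the fitted difference over 6 units per group. Cacna1a lies above 0 in both comparisons with chronic rats, and the widest intervals are those of Cacng1.

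The intervals bound what was measured. In the chronic against saline comparison the 95% intervals of 29 of the 32 genes lay inside a 2-fold change in either direction and those of 22 inside a 1.5-fold change. The counts were 29 and 24 for acute against saline and 31 and 20 for chronic against acute. The median SE of the channel genes was 0.17, against 0.14 for all genes.

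Partners of the channels were read from a list of 53 genes, of which 45 were tested. They comprise ankyrins, intracellular fibroblast growth factors, proteins of the axon initial segment, release-site scaffolds, calmodulins and kinases, small GTPases that inhibit calcium channels, and the AMPA receptor gamma proteins. None passed in any comparison by limma. At an unadjusted p under 0.05 there were 1, 1 and 2 of 45 in chronic against saline, acute against saline and chronic against acute, beside 2.87%, 1.59% and 2.48% of all genes. Differences above 0 numbered 38, 32 and 31 of 45, beside 56.5%, 49.1% and 56.5% of all genes, with medians of 0.14, 0.078 and 0.12. With saline replicate 4 left out, the counts above 0 were 35, 20 and 31, beside 56.4%, 47.8% and 56.5% of all genes. The medians were then 0.074, -0.011 and 0.12.

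The smallest p of the partners were as follows. Akap5, the scaffold that ties protein kinase A and calcineurin to L-type channels, had a mean of 1.997 ± 0.25 in the 6 acute units against 1.47 ± 0.42 in the 6 saline units (± SD), a difference of 0.53 (SE 0.18, limma adjusted p = 0.9997). Between chronic and acute rats its difference was -0.37 (SE 0.18). Rem2, a small GTPase that inhibits calcium channels, and Fgf13, which binds the sodium channel tail, had acute minus saline differences of 0.35 (SE 0.23) and 0.14 (SE 0.12). Syt1, the calcium sensor of release, Rims2, a release-site scaffold, and the AMPA receptor partner Cacng3 had chronic minus saline differences of 0.27 (SE 0.12), 0.21 (SE 0.11) and 0.39 (SE 0.21). Nfasc, an adhesion protein of the initial segment, and Nalcn, the sodium leak channel, had chronic minus acute differences of 0.27 (SE 0.12) and -0.25 (SE 0.15). Leaving out saline replicate 4, the acute minus saline differences were 0.15 for Rem2 and 0.024 for Fgf13, and the chronic minus saline ones 0.14 for Rims2 and 0.18 for Cacng3.

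Other probes gave a check on the channel genes, since 16 of them had more than 1 kept probe. This made 21 pairs of the chosen probe with another. Over the 18 units the correlation within a pair ran from -0.434 to 0.951 with a median of 0.501. Of the 21 pairs 10 had an adjusted p under 0.05 by a two-sided permutation test adjusted over the pairs. The sign of the difference was shared in 21 of 21 pairs for chronic minus saline, and in 15 of 21 for each of the other comparisons. These counts include saline replicate 4 and were not taken without it, so they do not show agreement apart from that unit. They count signs and not sizes. For chronic minus saline, Cacna1e had 0.28 on the chosen probe but 0.0089 and 0.0067 on its other kept probes. Cacna1a had 0.34 and 0.081, while Scn2a had 0.17 and 0.12. Saline replicate 4 was the lowest of the 18 units on the first and second Cacna1e probes (0.39 and -4.56).

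The printed Cacnb1 probes illustrate a close pair. The first and the second followed each other with r = 0.951 and rho = 0.878 (permutation adjusted p = 7e-05 for both), and r was 0.894 after removing the 2 units farthest from the median. The distant probe, on the same strand, had r = 0.783 with the first (permutation adjusted p = 0.00852) but rho = 0.558 (adjusted p = 0.0549), and r = 0.481 after removing those units. Chronic minus saline differences were 0.18, 0.12 and 0.26 for the 3 probes. The mean levels over 24 arrays were 2.99, 1.75 and -1.45.

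Both Cacna1i probes share 1 sequence and so measure how well 1 probe repeats. They had r = 0.796 and rho = 0.936 over the 18 units (permutation adjusted p = 0.00042 and 7e-05). The first minus the second was 0.095 in the median, and in 17 units it ran from -0.032 to 0.15. In saline replicate 4 it was 0.51, with levels of -1.23 and -1.74. That gap between 2 probes of the same bases is larger than the SD of the first probe in each group (0.14 in chronic, 0.23 in acute and 0.042 in saline rats).

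Other pairs did not pass the test. The probes of Cacna1b had r = -0.434 (adjusted p = 0.107), those of Cacna1a r = 0.443 (adjusted p = 0.107) and the first and second of Cacna1e r = 0.501 (adjusted p = 0.0576). Those of Cacna1d had r = 0.328 (permutation adjusted p = 0.239). The chosen Cacna1d probe had 0.19 for chronic minus saline and 0.015 for chronic minus acute. Its other kept probe had 0.42 (SE 0.18, limma unadjusted p = 0.0309) and 0.40 (SE 0.18, limma unadjusted p = 0.0363). The limma adjusted p of that probe were 0.9992 and 0.9545. Probes of Scn8a, Scn2a and Cacnb2, in contrast, had r = 0.888, 0.860 and 0.731, with adjusted p of 7e-05, 7e-05 and 0.00302. The printed Scn2b probes, of which the second was well above background on 21 arrays, had r = 0.620 (adjusted p = 0.0177) but rho = 0.340 (adjusted p = 0.252).

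**Figure D3:**
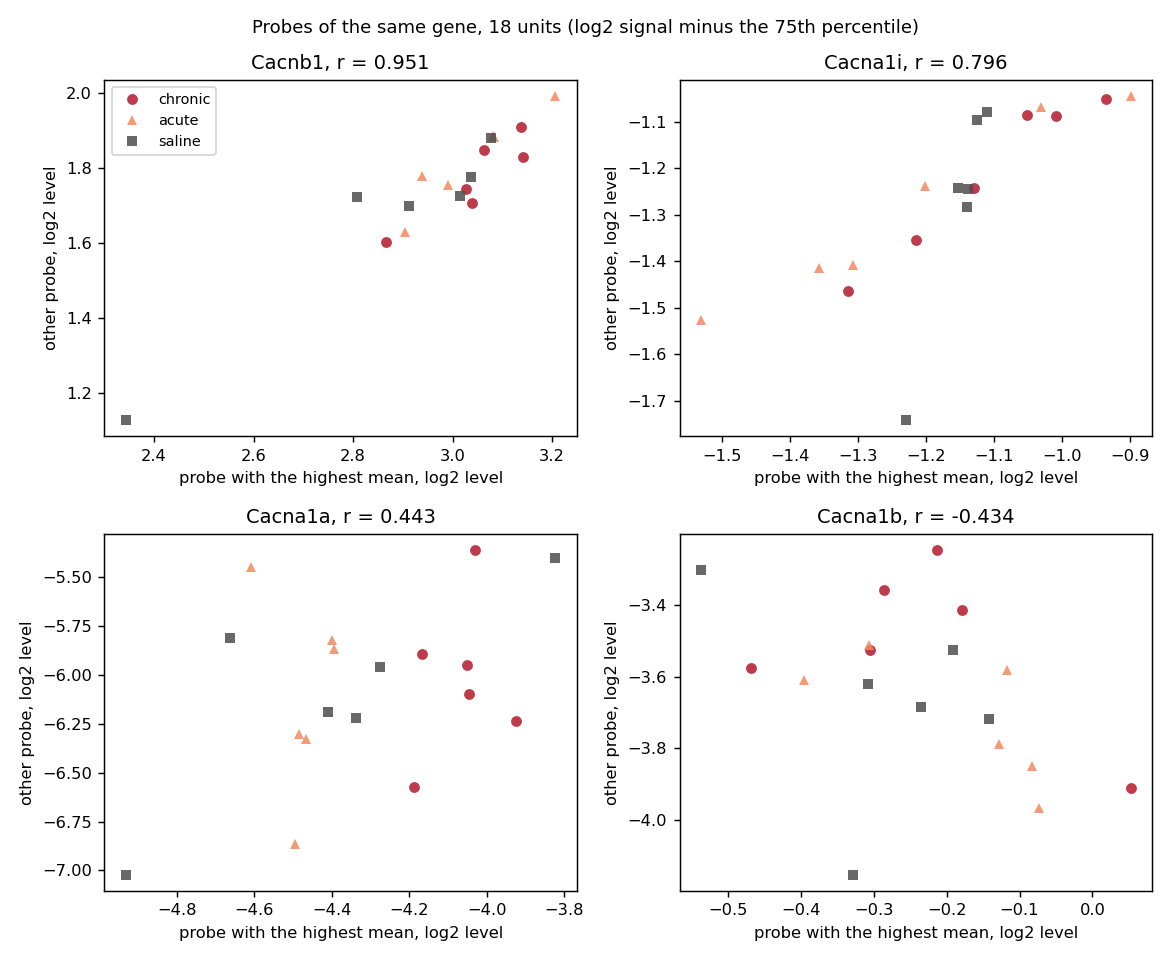
Levels of the chosen probe (horizontal) and another probe of the same gene (vertical), log2 signal minus the 75th percentile, in 18 units coloured by chronic, acute and saline group. The Cacnb1 and Cacna1i pairs follow each other, with saline replicate 4 apart at the lower left of Cacnb1 and below the others in Cacna1i, while the Cacna1a pair is loose and the Cacna1b pair has r below 0.

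Because the levels of region markers varied between units, each channel gene was set against the mean level of 4 marker lists, those of pan-striatal projection neurons (17 genes), cortex (10), choroid plexus and ependyma (7) and thalamus, septum and pallidum (9). The tests are permutations over the 18 units, with Benjamini-Hochberg adjustment over the 4 lists and the 20794 genes without a missing value. No channel gene is in a list. The lists are not independent of each other, since the pan-striatal and thalamus levels had r = -0.811 over the units.

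With the pan-striatal level, 8 of the 32 channel genes had a positive r past an adjusted p of 0.05, against 2.72% of all genes, and 0 a negative one, against 1.25%. The median r was 0.436, against 0.021 over all genes. Scn4b had r = 0.979 and rho = 0.851, with an adjusted p of 0.00351 for r by permutation. Its r was 0.981, 0.973 and 0.957 over the arrays of slides 1, 2 and 3, 0.919 after removing the 2 units farthest from the median, and 0.949 (adjusted p = 0.00607) without saline replicate 4. Cacnb1 had r = 0.932 and rho = 0.818, with an adjusted p of 0.00351 for r by permutation. It had 0.837, 0.908 and 0.938 within slides and 0.816 (adjusted p = 0.0191) without saline replicate 4.

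The other 6 were Scn3b, Cacna2d3, Scn2b, Cacna1e, Cacnb2 and Cacna1c, with r of 0.908, 0.813, 0.807, 0.806, 0.763 and 0.702. Their adjusted p by permutation were 0.00822, 0.0238, 0.0175, 0.0407, 0.0207 and 0.0466. None of these 6 passed without saline replicate 4, where r was 0.746, 0.560, 0.630, 0.512, 0.650 and 0.497 with adjusted p of 0.0852 or more. All 6 had r above 0 within each slide, from 0.388 for Cacnb2 on slide 3 to 0.913 for Scn3b on slide 2. Among the 8 are the sodium beta genes Scn2b, Scn3b and Scn4b and the calcium beta genes Cacnb1 and Cacnb2.

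With the cortex level, 2 channel genes had a positive r past the threshold, against 2.54% of all genes, and 1 a negative one, against 2.13%. The negative one, Cacna2d2, had r = -0.713 and rho = -0.664 (permutation adjusted p = 0.0425 for r), and -0.450, -0.907 and -0.462 within slides. It fell short of the threshold without saline replicate 4, at r = -0.576 (adjusted p = 0.248). Cacnb3 had r = 0.734 and did not pass (adjusted p = 0.0532). Cacna1g, singled out after its values were seen, had r = 0.5003 (adjusted p = 0.203) but rho = 0.810 (adjusted p = 0.0192), 0.895, 0.616 and 0.965 within slides, and r = 0.837 (adjusted p = 0.00607) without saline replicate 4.

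With the thalamus, septum and pallidum level, 2 channel genes had a positive r past the threshold, against 1.55% of all genes, and 3 a negative one, against 0.952%. Of the positive ones, Hcn3 had r = 0.760 (adjusted p = 0.0207), but -0.0323, 0.709 and 0.856 within slides, and 0.638 (adjusted p = 0.171) without saline replicate 4. The 3 negative ones were Scn4b, Cacnb4 and Cacna1c, at r = -0.836, -0.807 and -0.708 with adjusted p of 0.0392, 0.0356 and 0.0429. None of these 3 passed without saline replicate 4 (r = -0.546, -0.531 and -0.510). Within slides 1, 2 and 3 Cacnb4 had -0.0351, -0.871 and 0.0503 and Cacna1c -0.768, -0.552 and 0.0945, so neither relation held on slide 3, while Scn4b had -0.799, -0.716 and -0.635.

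With the choroid plexus and ependyma level, 0 channel genes had a positive r past the threshold, against 0.409% of all genes, and 1 a negative one, against 0.553%. This was Cacna1e at r = -0.701 (adjusted p = 0.0268), with -0.668, -0.706 and -0.454 within slides, and r = -0.637 (adjusted p = 0.176) without saline replicate 4. The next, Scn2a at r = -0.652 and Cacna1c at r = -0.570, had adjusted p of 0.0577 and 0.137. Of the 4 lists it had the largest median difference of chronic and of acute from saline rats. It also had the fewest relations past the threshold, among the channel genes and among all genes. The median r of the channel genes with this list was -0.341, against -0.085 over all genes. The part of this list in the differences of the channel genes was not tested.

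**Figure D4:**
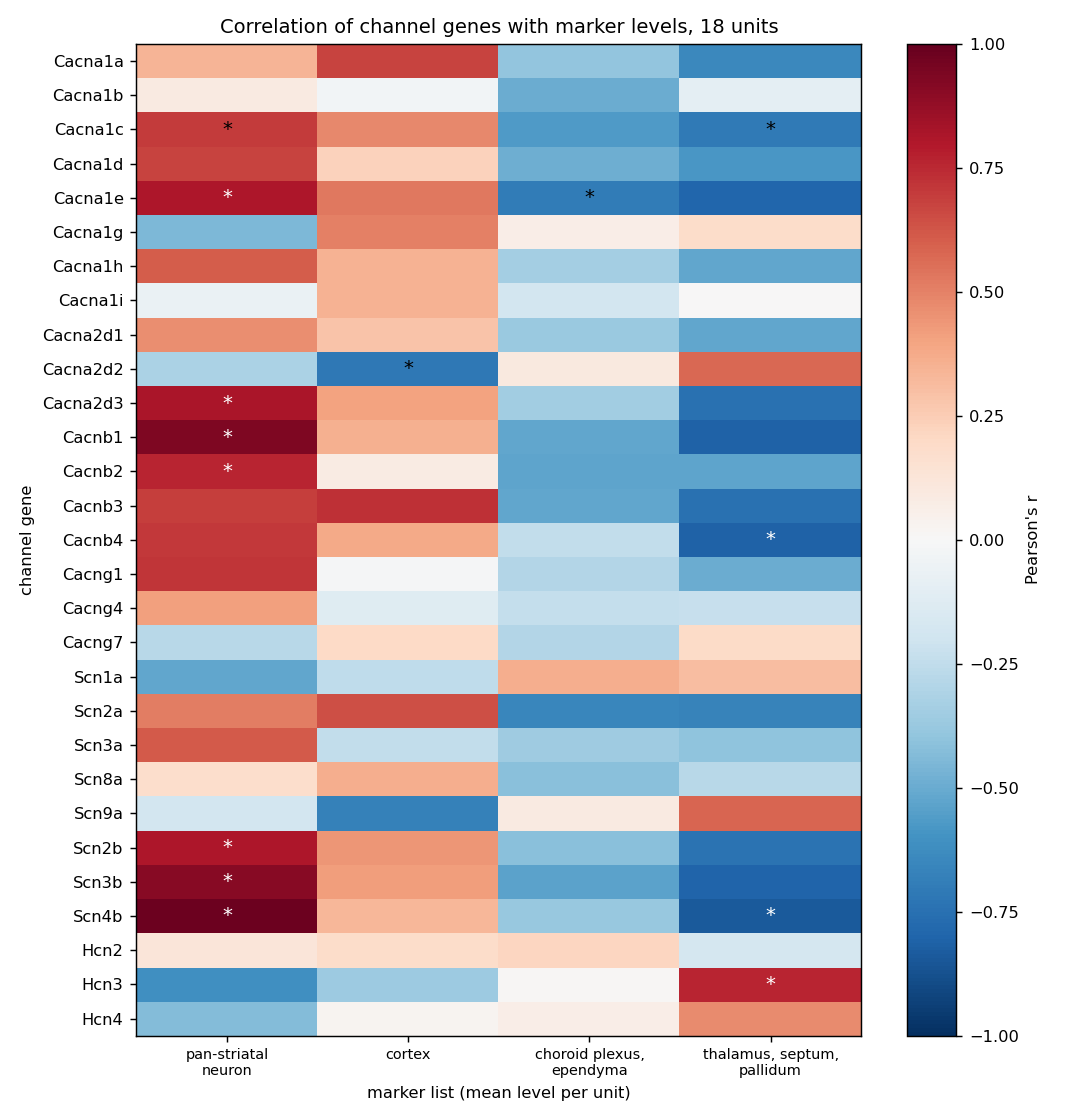
Pearson's r of 29 channel genes (rows) with the mean level of 4 marker lists (columns) over 18 units, with a star where the adjusted p is under 0.05. The pan-striatal column holds 8 stars, all at r above 0, and the darkest cell is that of Scn4b.

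**Figure D5:**
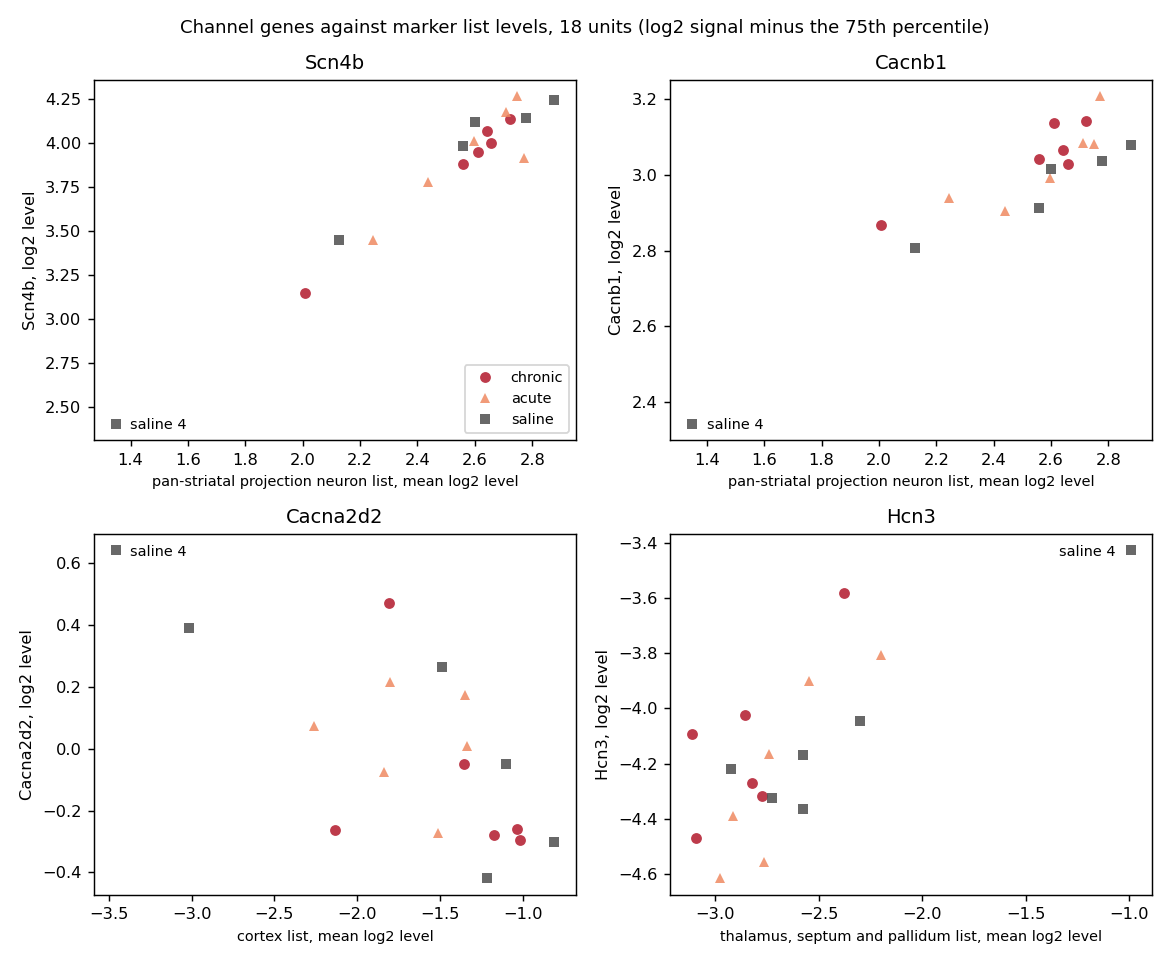
Levels of Scn4b and Cacnb1 against the pan-striatal list, Cacna2d2 against the cortex list and Hcn3 against the thalamus, septum and pallidum list (log2 signal minus the 75th percentile) in the chronic, acute and saline units. Saline replicate 4, marked in each panel, lies at an end of all 4 relations.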

How the data were processed

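Total RNA of 24 striatal samples, labelled with Cy3, was hybridised to 1-colour Agilent arrays on 3 slides, 8 arrays per group. Slides 1 and 2 each held 3 chronic, 2 acute and 3 saline arrays, and slide 3 held 2, 4 and 2. Per the file headers, the intensity of each spot was background-subtracted and detrended within its array by Agilent Feature Extraction (version 10.7 per the submitters' processing notes), with no normalization between arrays. The authors' deposited value table holds log2 values whose method is not given in the sources used here, and it served as an alternative. The number of arrays limits the precision.

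Processed intensities were taken as log2 minus the 75th percentile of non-control spots of the array. Spots marked as outliers were left out, which left 312 missing probe values, and spots of a probe were averaged. Probes well above background on a share of 0.5 or more of 1 group's arrays were kept (26259 of 45598), and a gene was represented by its kept probe with the highest mean (20902 genes). Groups were compared in 1 fit of all 3 groups by limma 3.58.1 (eBayes moderation), with Benjamini-Hochberg adjusted p over all genes at 0.05. Marker and probe correlations used 100000 permutations, two-sided, of which the smallest p possible is 1e-05. All 40 gene names match a RefSeq symbol. Probe coordinates were not checked against a genome.

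The members and the lists of partners and markers were chosen with earlier results of these data known. Levels by group are given for the tested channel genes, except 3 that are counted but not reported here by name. In each comparison the 6 channel genes and 3 partners with the smallest p are named, and of the marker relations those past 0.05 and the 3 strongest of each list, with the same exception. Alternatives were quantile normalization, normexp (offset 50), the authors' value table, no filter and a stricter one, each probe alone, 24 independent arrays, the letter as a random block (consensus correlation -0.366), slide as a block, each slide alone, only the 2 groups compared, robust moderation, outlier spots kept and each unit left out. The fits were tested on simulated data. Software was matplotlib 3.10.9, scipy 1.17.1, pandas 2.3.3 and numpy 2.4.6 under Python 3.11.15, and R 4.3.3.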

Additional observations from a re-analysis of the deposited data

Results flagged for a closer look

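In 13 of the 96 groups of 6 units (32 channel genes in 3 groups) the highest or the lowest unit stood far from the others by Dixon's test, where chance gives about 1 in 20. Saline replicate 4 accounted for 5 of these. It was the lowest saline unit in Cacna1i (-1.23, next -1.15), Cacnb1 (2.34, next 2.81), Cacnb3 (1.78, next 2.71) and Cacnb4 (-0.054, next 0.48), and the highest in Hcn3 (-3.43, next -4.04).

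Chronic replicate 1 was the highest chronic unit in the alpha2delta genes Cacna2d1 (2.69, next 2.45) and Cacna2d2 (0.47, next -0.048). Chronic replicate 4 was the lowest chronic unit in the sodium beta genes Scn3b (2.50, next 2.65) and Scn4b (3.15, next 3.88), and chronic replicate 3 the highest in Scn2b (4.10, next 3.90). The other 3 were acute replicate 2, lowest in Scn3a (-0.17, next 0.28), chronic replicate 7, lowest in Scn9a (-6.90, next -5.88), and acute replicate 3, highest in Scn9a (-4.75, next -5.56).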

How the results depend on the processing

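No channel gene, and no gene of the 20902, passed an adjusted p of 0.05 by limma in any comparison under any of the alternatives tried. The counts of channel genes at an unadjusted p under 0.05 ran from 0 to 4 for chronic minus saline, 0 to 3 for acute minus saline and 0 to 6 for chronic minus acute over these alternatives. Single slides reached the high ends, where the shares of all genes were larger too. Slide 2 alone had 4 for chronic minus saline and 6 for chronic minus acute, beside 9.32% and 7.62% of all genes. Slide 3 alone had 3 for acute minus saline, beside 10.9% of all genes. The median differences of the 32 channel genes left their main values by more than the 0.105 SD of a unit's mean level only on single slides. They were -0.12 on slide 2 alone for chronic minus acute, and -0.076 and -0.096 on slide 3 alone for chronic minus saline and acute minus saline. The medians of all genes there were -0.00052, -0.045 and -0.040. The cause was not tested, and single slides hold 2 to 4 arrays per group.

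Over the 32 alternatives, 4, 3 and 5 of the 32 channel genes kept the sign of their difference throughout in chronic minus saline, acute minus saline and chronic minus acute. The share of all genes that did so is not given here. Among the genes named, signs turned in acute minus saline for Cacng4 with normexp and quantile normalization (0.023), for Cacna2d1, Scn3a and Cacnb4 on slide 1 alone (-0.24, -0.12 and -0.12) and for Cacnb1 on slide 3 alone (-0.11). In chronic minus acute they turned for Cacna1h, Cacna2d1 and Scn3a on slide 1 (0.053, 0.070 and 0.067), for Cacng4 on slide 2 (-0.51) and for Cacna1g on slide 3 (-0.64). In chronic minus saline they turned on slide 3 for Cacna1a (-0.36), Cacna1e (-0.31), Cacna2d3 (-0.054) and Scn2a (-0.26).

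The numbers of channel genes related to the pan-striatal, cortex, choroid plexus and thalamus lists were 8, 3, 1 and 5. They were 14, 8, 3 and 11 with 24 arrays as independent samples, where paired arrays count as separate samples, and 5 for cortex and 0 for choroid plexus with values centred within treatment groups. Without saline replicate 4 they were 2, 2, 0 and 1, and the 2 of the cortex list include Cacna1g, which did not pass with it. The shares of all genes past the threshold under these settings are not given here. A change in these counts is therefore not shown to be particular to channel genes. The counts of markers, classes and partners without saline replicate 4 were added after seeing the data. No paired analysis was possible because the labels give the groups no shared replicate numbers. Dim signals limit Cacng4 and Scn9a, which were well above background on 16 and 18 of the 24 arrays.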
